A study of Mus musculus with 4 samples.

Results

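Ccl17-high dendritic cells (DCs) are the migratory DCs of ear-draining lymph nodes that held many transcripts of the chemokine Ccl17. A barcode, the tag of 1 droplet, entered the DC gate with at least 500 genes, at most 10% mitochondrial UMIs (unique molecular identifiers, 1 per captured transcript), at least 1 UMI of the DC maturation gene Fscn1 and 0 UMIs of the T cell genes Cd3e, Cd3d and Cd3g and the B cell genes Cd79a and Cd79b. It was Ccl17-high when it held at least 5 UMIs of Ccl17 and at least 15 per 10000 of its gene UMIs. This gave 502 cells of 8944 gated DCs, which were themselves drawn from 15836 barcodes. Of the 502 cells, 170 came from 4775 gated DCs of untreated mice and 332 from 4169 gated DCs of mice treated with MC903. The reference DCs passed the same gate with Ccl17 below 5 per 10000, and they numbered 4040 and 3504. The other 565 untreated and 333 MC903 cells lay between the thresholds and entered neither group.

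Both pools came from Tnfsf4KI/+ mice, whose knock-in copy of Tnfsf4 reports OX40L, a costimulatory ligand, as blue fluorescence (BFP). MC903, also called calcipotriol, is a vitamin D analogue that makes skin release TSLP, and it was put on the ears at days 0, 2 and 4 before the draining nodes were collected at day 5, while the other mice had untreated ears. The sort took 5000 BFP+ and 7000 BFP- migratory DCs per treatment, defined as B220- cells with intermediate CD11c and high MHC class II, and hashtag antibodies kept the sorted populations apart within 1 capture on the 10x 3′ v3 chemistry. Strain background, age, sex and the number of mice in a pool are not given in the sources used here. Each treatment is 1 pool in 1 capture sequenced on its own lane, so treatment, capture and lane cannot be told apart, no test was possible, and every interval below covers counting error only.

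Ccl17 and Ccl22 are secreted chemokines that share the receptor CCR4, which is carried by type 2 helper T cells, regulatory T cells and skin-homing memory T cells. DCs that mature and leave the skin for its lymph nodes raise both, together with costimulatory ligands that T cells read through CD28, CD27, 4-1BB and related receptors. In myeloid cells Ccl17 is a known target of the transcription factor STAT6 downstream of interleukin-4 and of STAT5 downstream of GM-CSF and TSLP, and many inflammatory chemokine genes are targets of NF-kappaB.

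The start regions of 3 chemokine genes of these cells are shown because Ccl17 chose the cells, Ccl22 is its neighbour on chromosome 8 and was the other abundant chemokine of the group, and Cxcl1 belongs to another chemokine family. Each is the 250 bases before the annotated start (RefSeq, GRCm38.p6, plus strand), written 5′ to 3′, with motif matches in capitals. Ccl17 lies at chr8:94810203-94810452, Ccl22 at chr8:94745434-94745683 and Cxcl1 at chr5:90890995-90891244, and the starts of Ccl22 and Ccl17 are 64769 bases apart.
Ccl17: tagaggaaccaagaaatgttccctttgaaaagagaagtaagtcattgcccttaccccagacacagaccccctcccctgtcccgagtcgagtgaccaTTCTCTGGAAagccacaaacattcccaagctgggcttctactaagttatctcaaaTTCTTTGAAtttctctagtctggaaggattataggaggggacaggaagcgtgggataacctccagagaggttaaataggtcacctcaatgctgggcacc
Ccl22: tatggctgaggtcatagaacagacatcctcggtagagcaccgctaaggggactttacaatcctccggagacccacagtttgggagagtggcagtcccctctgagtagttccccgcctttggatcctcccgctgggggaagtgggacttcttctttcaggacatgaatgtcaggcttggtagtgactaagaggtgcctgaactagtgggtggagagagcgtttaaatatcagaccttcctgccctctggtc
Cxcl1: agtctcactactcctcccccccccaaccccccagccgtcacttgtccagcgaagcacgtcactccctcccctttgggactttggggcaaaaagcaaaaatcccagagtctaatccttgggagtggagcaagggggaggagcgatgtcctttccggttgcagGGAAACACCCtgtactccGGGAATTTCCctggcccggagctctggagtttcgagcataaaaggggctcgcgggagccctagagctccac
The motifs searched were the STAT form, TTC and GAA with 3 or 4 free bases (N) between them, which reads the same on both strands, and on both strands an NF-kappaB form, GGG, NN, TT, N and CC in a row. Ccl17 held the STAT form with 4 free bases at -154 and that with 3 at -99 from its start, and these matches do not overlap. Cxcl1 held the NF-kappaB form at -71 on the plus strand and at -89 on the minus strand. The Ccl22 window held neither form. Of 32851 promoter windows of this length, 7.02% held the STAT form with 3 free bases, 5.85% that with 4, and 4.11% the NF-kappaB form. Of 14 leading genes of the group 9 had a promoter entry, of which 1 had a STAT match and 3 an NF-kappaB match. These are counts of genes, and Bcl2l1, with several windows, counted through a match in any of them. The shares above are of windows, so the counts and shares are not compared. A match is a description of the letters and shows no binding.

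The 2 captures differed in depth, and the 5-UMI condition reads depth. Gated untreated cells had a median of 2685 gene UMIs and gated MC903 cells 9685. Ccl17-high cells were a little deeper than their references, with medians of 3170 against 2682.5 UMIs untreated and 11940 against 9381.5 after MC903. The captures shared 23 barcode sequences. Ccl17 UMIs in droplets of other cells were few: 5 of 183 untreated B cell barcodes (2.73%, median depth 3337 UMIs) and 2 of 147 T cell barcodes (1.36%) held one, against 15 of 336 (4.46%) and 4 of 200 (2%) in the MC903 capture. No such barcode met the Ccl17 conditions, which allows shares of up to 1.64%, 2.04%, 0.893% and 1.5%.

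Ccl17 itself, which chose the cells, ran in untreated Ccl17-high cells from 15.03 to 216 per 10000 UMIs with a median of 26.0. In MC903 cells it ran from 15.1 to 296 with a median of 31.8. Summed over cells it stood at 3857 CPM (UMIs per 1000000 gene UMIs) against 76.1 in untreated reference DCs, and at 4606 against 77.0 CPM after MC903. The Ccl17-high cells held 53.8% of all Ccl17 UMIs of gated untreated DCs and 75.9% of those of MC903 DCs. Just inside the threshold, cells at 15 to 20 per 10000 (38 untreated and 73 MC903) stood at 1716 and 1698 CPM of Ccl17. Just outside, cells at 10 to 15 with at least 5 UMIs (28 and 92) stood at 1273 and 1226 CPM. Ccl22 differed little across that edge, at 4924 inside against 4488 CPM outside untreated and 6191 against 5715 CPM after MC903. Cd40 lay at 727 CPM inside against 912 outside untreated, and at 657 against 617 after MC903. The threshold therefore cuts a continuous range of Ccl17 levels.

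The label names an activated DC, and of the maturation genes Cd40 stood higher in both captures while Cd83 and Ccr7 did not. Ccl17 and Fscn1 cannot check the label, since the rule and the gate used them. Because the cells were selected on their own Ccl17 UMIs and every gene of a cell enters its total, every difference between Ccl17-high and reference cells below is a description of these pools. Ratios are log2 of summed UMIs scaled to CPM, with the exact interval of 2 Poisson counts. A gene was measured with at least 20 CPM in the higher group and at least 50 UMIs in both together, and called higher or lower at a 1.5-fold ratio. By this rule 7.09% of 5077 measured genes were higher and 14.1% lower in untreated Ccl17-high cells, while after MC903 the shares were 7.41% and 11.3% of 4915. Beside that background 5 of the 6 markers were higher untreated and all 6 after MC903, from which nothing is read, since the rule used this contrast. The median of all measured genes was -0.12 untreated and -0.09 after MC903. Scaling by trimmed means (TMM) adds 0.13 and 0.10 to every ratio, and the split moves from 360 higher and 714 lower to 543 and 466 untreated, and from 364 and 555 to 516 and 401 after MC903.

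Ccl22 was the most abundant of the markers. Its level was 6424 CPM in untreated Ccl17-high cells and 1232 CPM in their reference, a log2 ratio of 2.38 (2.34 to 2.43). The MC903 levels were 8892 and 2083 CPM, a ratio of 2.09 (2.08 to 2.11). It had a UMI in 169 of 170 and in 332 of 332 Ccl17-high cells. Per cell, untreated Ccl17-high cells ran from 0 to 362 Ccl22 UMIs per 10000 with a median of 37.0, and 158 of 170 lay above the reference median of 7.18. After MC903 they ran from 1.38 to 388 with a median of 74.3, and 319 of 332 lay above the reference median of 9.63. The ranges of Ccl17-high and reference cells overlapped in both captures, since single reference cells reached 186 and 370.

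Ccl9, a ligand of the chemokine receptor CCR1, was rarer and more uneven. Its untreated levels were 307 CPM in Ccl17-high and 34.2 CPM in reference cells (3.16, 2.95 to 3.38). Its MC903 levels were 152 and 10.1 CPM (3.91, 3.72 to 4.11). After each cell was thinned to 2000 UMIs, 23.9% of untreated and 15.5% of MC903 Ccl17-high cells had a Ccl9 UMI, against 5.88% and 1.30% of reference cells and 1.99% and 0.311% of B cell barcodes. Without thinning these shares in Ccl17-high cells were 34.1% and 29.8%. Ccl6, a neighbouring CC chemokine gene of mice, was also higher, at 108 against 15.3 CPM untreated and 53.0 against 12.2 CPM after MC903 (2.82 and 2.12). A single barcode held 47.9% of the untreated Ccl6 UMIs. Ccl9 and Ccl6 were found together in 17 untreated and 42 MC903 cells.

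Serpinb9b, an intracellular serpin and relative of the granzyme B inhibitor Serpinb9, had untreated levels of 91.5 and 7.38 CPM (3.63, 3.20 to 4.05) and MC903 levels of 46.9 and 5.37 CPM (3.13, 2.83 to 3.42). Its UMIs came from 16 untreated and 38 MC903 cells, so most Ccl17-high cells had none. Tnfsf9, which encodes the 4-1BB ligand, had untreated levels of 226 and 100.2 CPM (1.18, 0.96 to 1.39) and MC903 levels of 139.9 and 64.7 CPM (1.11, 0.98 to 1.25). Thinned, 30.2% and 15.8% of Ccl17-high cells had a Tnfsf9 UMI, against 12.7% and 6.92% of reference cells and 3.97% and 1.55% of B cell barcodes.

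Cd70, the ligand of CD27, separated the captures. It lay at 24.0 against 16.2 CPM untreated (0.57, -0.15 to 1.21), which missed the 1.5-fold line and whose interval includes 0. After MC903 it was higher in Ccl17-high cells, at 68.5 against 22.8 CPM (1.59, 1.39 to 1.79). Thinned, 2.52% of untreated Ccl17-high cells and 2.87% of untreated reference cells had a Cd70 UMI, close to the 1.72% of T cell barcodes. After MC903 the thinned shares were 9.09% of Ccl17-high and 3.09% of reference cells, against 0.621% of B cell barcodes. The 1.72% and the 0.621% come from different cell types, so they do not compare the captures.

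**Figure D1:**
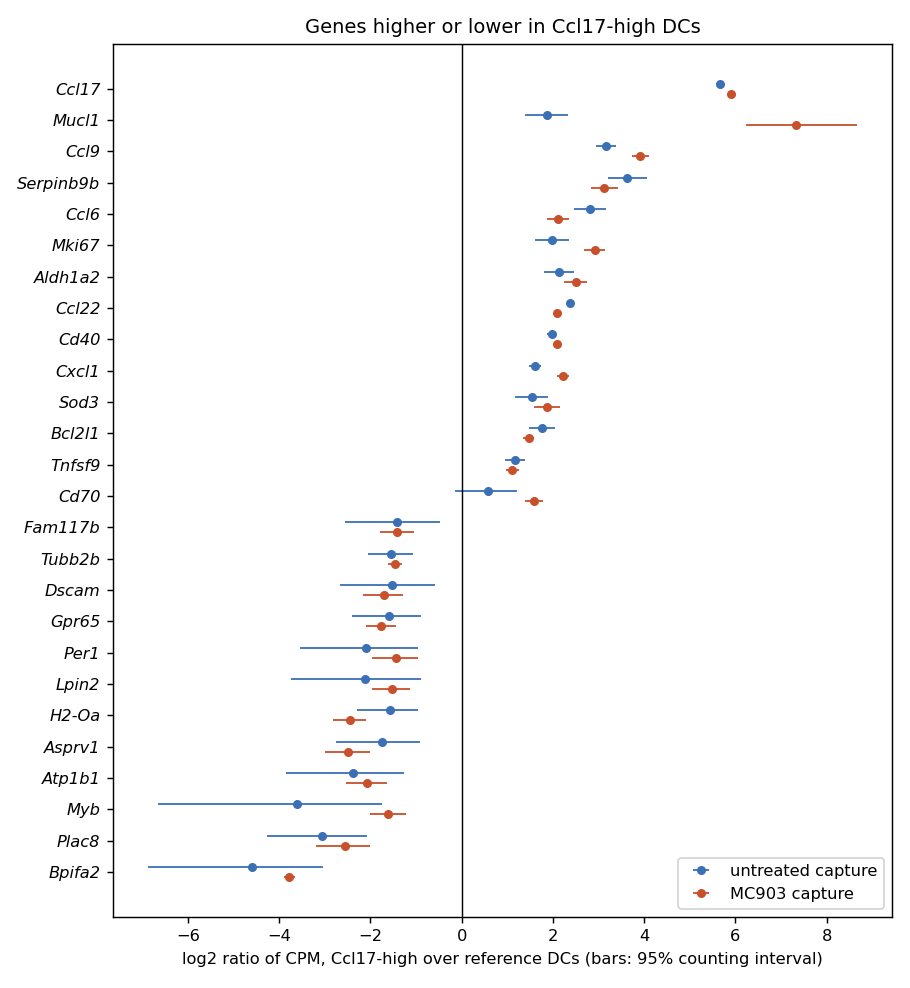
Log2 ratio of CPM in Ccl17-high over reference DCs (horizontal axis) for the given markers and the genes with the largest ratios shared by both captures; points are the untreated (blue) and MC903 (orange) captures and bars are 95% counting intervals. The markers lie to the right of 0 except that the interval of untreated Cd70 crosses it, and Ccl17, which chose the cells, lies at 5.66 and 5.90.

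The genes with the largest ratios shared by both captures were ranked by the smaller of the 2 ratios. Cd40, the receptor through which T cells license DCs, reached 1256 CPM in untreated Ccl17-high cells where the reference had 319 (1.97, 1.88 to 2.07), and 1004 CPM where the MC903 reference had 237 (2.08, 2.03 to 2.14). It had a UMI in 148 and 316 Ccl17-high cells, and per cell 148 of 170 and 307 of 332 lay above their reference median. Bcl2l1, which encodes the survival protein BCL-XL, stood at 136 against 40.0 CPM and at 168 against 60.9 CPM (1.77 and 1.46). Bcl2l1 had a UMI in 47 untreated and 212 MC903 Ccl17-high cells, and 10 barcodes held 47.1% of its 119 untreated UMIs.

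Cxcl1, a neutrophil attractant, stood at 580 against 190 CPM untreated and at 195 against 41.7 CPM after MC903 (1.61 and 2.22), with a UMI in 87 and 90 cells. Aldh1a2, the retinoic acid synthesising enzyme of some migratory DCs, stood at 116 against 26.2 CPM and at 53.0 against 9.37 CPM (2.14 and 2.498). Its UMIs came from 31 and 60 Ccl17-high cells, and 10 barcodes held 69.3% and 54.6% of them. Mki67, a gene of cycling cells, stood at 86.9 against 22.0 CPM and at 70.7 against 9.34 CPM (1.99 and 2.92), in 34 and 96 cells. Thinned, 12.6% and 9.70% of Ccl17-high cells had a Mki67 UMI, against 4.05% and 1.33% of reference cells, and 11.9% of untreated B cell barcodes had one. It was the single member called higher among the 3 measured genes of the proliferation list in each capture, and that list summed to 185 against 170 CPM untreated and 179 against 126 CPM after MC903. Stmn1, of the same list, was lower untreated (-1.82). Sod3, an extracellular superoxide dismutase, was higher by 1.54 and 1.88. Mucl1, a small mucin-like protein gene, was higher by 1.88 and 7.32, but its UMIs came from 7 and 10 Ccl17-high cells. Cells were also grouped into clusters of similar transcripts. Within cluster 0, which held the most untreated Ccl17-high cells, Sod3 lay at -0.53 (-1.68 to 0.43, from 9 UMIs). In the other clusters compared, of both captures, Sod3 lay between 0.33 and 2.08. Within cluster 1, which held the most after MC903, Mucl1 lay at -1.71 from 1 and 3 UMIs (-7.43 to 1.92).

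Among 20 other chemokine genes (with Ccl9 and Ccl6 counted again), 5 were higher and 2 lower of 10 measured untreated, and 4 were higher and 4 lower of 9 after MC903, with medians of 0.92 and -0.29. Ccl5, a T cell attractant and a very abundant transcript of migratory DCs, was lower: 5532 against 11705 CPM untreated and 2917 against 8261 CPM after MC903 (-1.08 and -1.502). Per cell its median was 46.0 against 80.5 per 10000 untreated and 8.56 against 54.1 after MC903, and 47 of 170 and 61 of 332 Ccl17-high cells lay above the reference median. Cxcl2, another neutrophil attractant, was higher by 1.49 and 1.18. Cxcl16, the ligand of CXCR6, was lower after MC903 (-0.80) and stood at -0.23 untreated. Cxcl10, a ligand of CXCR3, was lower in both, at -3.15 untreated (-5.03 to -1.79, from 4 UMIs) and -1.27 after MC903. Within single clusters of cells with similar transcripts the ratio of Cxcl1 varied, from 0.06 in untreated cluster 1 and -0.30 in MC903 cluster 3 (6 and 16 UMIs) to 2.03 in MC903 cluster 5.

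Among 17 TNF family ligands 4 were measured. Tnf itself was higher, at 82.4 against 36.3 CPM untreated (1.18) and 65.6 against 14.5 CPM after MC903 (2.18), and Ltb, a chain of lymphotoxin, was lower (-0.64 in each capture). Tnfsf4, which carries the reporter, was scarce: thinned, 2 of 159 untreated (1.26%) and 2 of 330 MC903 Ccl17-high cells (0.606%) had a UMI, against 1.80% and 1.70% of reference cells. In B cell barcodes Tnfsf4 was found in 0 of 151 and 0 of 322, which allows up to 1.99% and 0.932%, so the untreated share of Ccl17-high cells lies within that limit.

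Of the B7 family and other costimulatory or checkpoint ligands, 4 of 10 measured were higher and 1 lower untreated, while after MC903 the counts were 5 and 1 of 11 (medians 0.29 and 0.48). Cd86, a ligand of CD28, stood at 234 against 155 CPM untreated (0.59) and at 1016 against 439 CPM after MC903 (1.21). Within untreated clusters 0 and 1 it lay at 0.48 and 0.44, below the 1.5-fold line. After MC903 it was also below that line in cluster 1 (0.52) and lay at 2.09, 1.90 and 0.86 in clusters 3, 5 and 12. After MC903 267 of 332 Ccl17-high cells lay above the reference median for Cd86. Its partner Cd80 lay at 85.8 against 84.2 CPM (0.03) and 221 against 241 CPM (-0.13). Pvr, a ligand of CD226 and TIGIT, was higher by 1.19 and 1.40, Icam1 by 0.85 and 0.63, and Pdcd1lg2, which encodes PD-L2, by 1.01 and 0.77. Cd274, which encodes PD-L1, lay at 0.49 and 0.11. Nectin2 was higher after MC903 (2.35), and Cd200, an inhibitory ligand, was lower by 0.77 and 0.71.

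Maturation genes did not differ as a block. Of 21 measured, 6 were higher and 1 lower untreated, and 6 were higher and 3 lower after MC903 (medians 0.16 and -0.05). Besides Cd40 and Bcl2l1 the higher members included Marcksl1 (0.88 and 0.67) and Il4i1, an amino acid oxidase of mature DCs (0.76 and 0.68). Fscn1, the actin bundler that the gate itself requires, was higher by 0.70 and 0.83. Ccr7, the receptor that guides DCs to the node, stood at 2413 against 2532 CPM untreated (-0.07) and was lower after MC903, at 1885 against 2839 CPM (-0.59). Cd83 lay at 0.43 and 0.01, Relb at -0.09 and -0.41, and Il15ra was lower by 0.75 and 0.84. The mature migratory DC marker list summed to 22539 against 21639 CPM untreated and 23019 against 20446 CPM after MC903, with all 10 of its genes detected.

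Of the NF-kappaB subunits, inhibitors and feedback genes, 5 of 22 measured were higher and 2 lower untreated, while after MC903 the counts were 2 and 2 of 23 (medians 0.05 and 0.12). The feedback genes Nfkbiz and Tnfaip3 were higher untreated (0.91 and 0.71) and lay at 0.16 and 0.28 after MC903. The subunit gene Nfkb1 lay at 0.68 and 0.54. Map3k14, the kinase of the alternative pathway, was lower in both (-0.71 and -0.61).

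In the list of STAT5 and STAT6 pathway and target genes, 2 of 22 measured were higher and 4 lower untreated, and 5 were higher and 2 lower after MC903 (medians 0.03 and -0.04). Stat5a was higher in both captures, at 166 against 69.7 CPM (1.25) and 220 against 77.7 CPM (1.504). Stat6 lay at 0.46 and 0.43. Socs3, a feedback inhibitor of cytokine receptors, was higher by 1.86 and 1.26. Cish, a feedback gene of STAT5, reached 89.6 against 27.5 CPM after MC903 (1.70) and was below the 20 CPM that counted as measured untreated, at 6.86 against 4.13 CPM. Ccnd2 and Irf4 were higher after MC903 (1.13 and 0.69) and lay at 0.40 and 0.25 untreated. For Irf4 no MC903 cluster compared on its own was 1.5-fold higher. Its ratio was negative for cluster 1 (-0.10) and cluster 12 (-0.58). It was positive for cluster 3 (0.29, 13 against 23 UMIs) and cluster 5 (0.54). Of the receptor chains, Il7r was lower (-0.74 and -0.86), while Crlf2, the TSLP receptor chain, lay at -0.24 and -0.16 and Il4ra at -0.18 and -0.31.

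Cytokine genes that steer T cells were mostly unmeasured. Of 7 measured untreated, 4 were higher and none lower, and of 6 after MC903, 1 was higher and 1 lower (medians 0.79 and 0.37). Ebi3, a shared chain of IL-27 and IL-35, was higher in both (0.81 and 0.86). Il1b was higher untreated, at 1055 against 612 CPM (0.79), and lay at 0.35 after MC903. Within single clusters this was not seen untreated, where Il1b lay at 0.14 (-0.06 to 0.33) in cluster 0 and -0.51 in cluster 1. After MC903 it lay at -0.26 in cluster 1, -0.21 in cluster 12 and -0.69 in cluster 3 (4 and 14 UMIs), but at 0.75 in cluster 5. Il12b, the p40 chain of IL-12 and IL-23, was higher untreated (1.09) and lower after MC903 (-0.75), from 30 and 47 cells.

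Of 11 measured genes of class II antigen presentation 5 were lower and 6 did not pass untreated, and 7 were lower and 4 did not pass after MC903, with none higher and medians of -0.58 and -0.76. H2-Aa, a class II chain, stood at 3085 against 4561 CPM untreated (-0.56) and at 3107 against 5395 CPM after MC903 (-0.80), and 64 of 170 and 93 of 332 Ccl17-high cells lay above the reference median. H2-Eb1 lay at -0.58 and -0.76. Ciita, the transactivator of class II genes, was lower (-0.94 and -1.20), as were the peptide editor genes H2-DMa (-0.99 and -0.61), H2-DMb2 (-0.85 and -0.90) and H2-Oa (-1.58 and -2.45). Cd74, the invariant chain, lay at -0.08 and -0.09. The class I list lay near 0 (medians -0.08 in each capture), with Calr lower untreated (-0.61) and Nlrc5 higher after MC903 (0.89), of 13 measured. TMM scaling turns medians between -0.10 and 0, such as these class I medians, positive, and the class II medians stay negative under it.

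Of 6 measured intracellular serpins 3 were higher and 1 lower untreated, and 4 were higher and none lower after MC903 (medians 0.54 and 0.77). Serpinb9 stood at 1125 against 507 CPM (1.15) and 1010 against 569 CPM (0.83), and Serpinb1a, an inhibitor of neutrophil proteases, was higher by 0.61 and 1.44. Of 13 measured survival genes 5 were higher in each capture, with 1 lower untreated and none lower after MC903 (medians 0.44 and 0.27). These were Bcl2l1, the near-identical copies Bcl2a1a, Bcl2a1b and Bcl2a1d (0.96 to 1.26), and Bak1, which promotes cell death (0.59 and 0.63). How the counting split reads among the Bcl2a1 copies is uncertain, so they are best read as 1 family.

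Of 9 measured migration and guidance receptors 5 were higher and 1 lower untreated, and 4 were higher and 2 lower after MC903 (medians 0.62 and 0.57). Nrp2, a receptor for semaphorins and for VEGF-C, was higher by 1.14 and 0.79, and Gpr183, the oxysterol receptor, by 0.78 and 0.83. Cxcr4 was lower by 0.79 and 0.73. Of the cytoskeleton genes 7 of 22 measured were higher and 2 lower untreated, against 6 and 1 of 21 after MC903 (medians 0.41 and 0.18). Actb, cytoplasmic actin, stood at 35769 against 23682 CPM (0.59) and 34063 against 19020 CPM (0.84). Arpc2, Cfl1 and Tubb6 were also higher in both captures (0.82 and 0.75, 0.68 and 0.64, 1.40 and 1.29), and the tubulin gene Tubb2b was lower (-1.54 and -1.46).

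Of 13 measured cholesterol and lipid synthesis genes 5 were higher untreated and 7 after MC903, none was lower, and the other 8 and 6 did not pass (medians 0.46 and 0.62). Idi1, an isoprenoid isomerase, stood at 542 against 287 CPM (0.92) and 544 against 276 CPM (0.98). Cyp51 was higher by 0.82 and 1.26, Sqle by 0.78 and 0.83, and Hmgcs1 lay at 0.37 and 1.05. Of 10 measured glycolysis genes 2 were higher in each capture, Eno1 (0.80 and 0.66) and Pfkp (0.68 and 0.88), and none was lower. In the retinoic acid and tolerance list 4 of 5 measured were higher untreated and 2 of 4 after MC903, led by Aldh1a2, and Itgb8, which activates TGF-beta, was higher untreated (1.51). Ptgs2, the prostaglandin synthesis enzyme COX-2, was higher in both (0.73 and 0.67).

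Several lists of stress and lineage had medians around those of all measured genes, -0.12 untreated and -0.09 after MC903. The list medians were -0.09 and -0.22 for immediate early genes and -0.28 and -0.08 for the unfolded protein response. They were -0.06 and -0.19 for interferon-stimulated genes and -0.09 and -0.20 for lineage transcription factors. Of all measured genes 14.1% were lower untreated and 11.3% after MC903. Of 16 measured immediate early genes 4 were lower untreated and 3 after MC903, among them Fos (-1.27 and -0.96) and Atf3 (-0.71 and -1.09), with Hspa1b higher after MC903 (0.59). Of the unfolded protein response genes 3 of 10 were lower untreated and none of 9 differed after MC903. Of 6 measured interferon-stimulated genes 2 were higher untreated, among them Isg15 (1.14), and 2 were lower after MC903. Of the lineage transcription factors 3 of 15 were lower untreated, and 1 was higher and 3 lower of 12 after MC903, with Klf4 lower in both (-0.71 and -0.80).

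**Figure D2:**
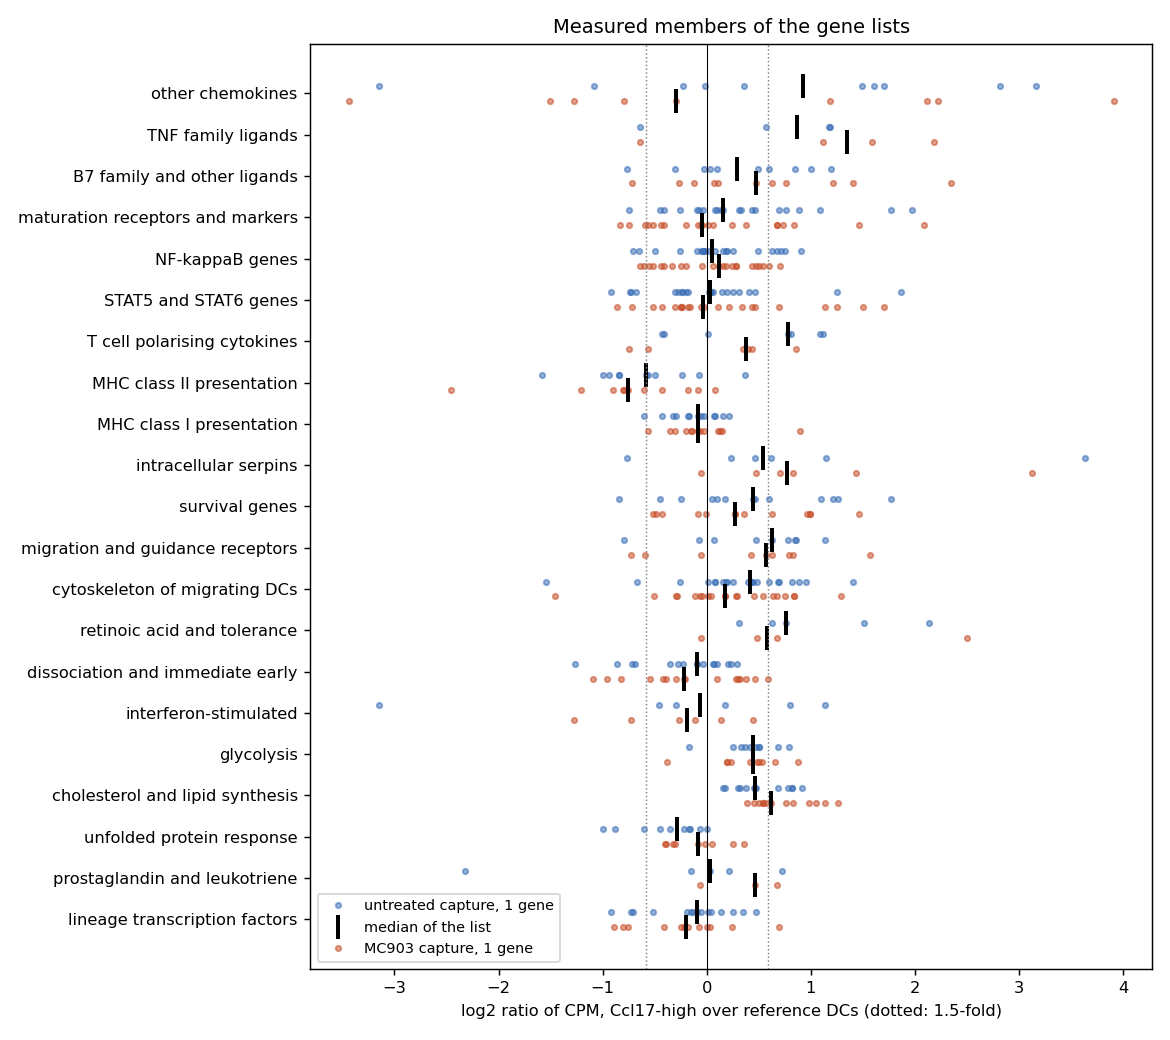
Log2 ratio of CPM in Ccl17-high over reference DCs (horizontal axis) for every measured gene of each gene list (1 point a gene, untreated blue, MC903 orange), with each list's median as a black bar and 1.5-fold as dotted lines. Class II presentation has medians of -0.58 and -0.76, and cholesterol and lipid synthesis has medians of 0.46 and 0.62.

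Defining markers of DC subsets gave no single lineage. The 10 cDC1 markers summed to 399 against 388 CPM untreated and 428 against 386 CPM after MC903, mostly from Irf8, and the defining genes Clec9a and Tlr3 were at 0 in Ccl17-high cells, which allows up to 3.43 CPM untreated and 0.729 CPM after MC903. The 10 cDC2 markers summed to 1485 against 1538 CPM and 1437 against 1241 CPM. Of these, Sirpa (1.34 and 1.54) and Cd302 (1.48 and 0.96) were higher, and Cd209a was lower untreated (-2.39). Langerhans cell markers summed to 421 against 374 CPM and 149 against 126 CPM, with Ehf higher in both (0.60 and 1.14). Monocyte and macrophage markers summed to 345 against 611 CPM and 131 against 250 CPM, and neutrophil markers to 5.72 against 130 CPM and 0.243 against 4.80 CPM. B cell markers summed to 33.2 against 36.5 CPM untreated and 19.2 against 9.32 CPM after MC903, and T cell markers to 94.9 against 143 CPM and 27.5 against 35.9 CPM, with the Cd3 and Cd79 genes at 0 by the gate. The part of these cell types in the ratios was not tested.

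The genes lower in both captures were led by Bpifa2, a salivary protein gene, at 3.43 against 82.5 CPM untreated and 143 against 1966 CPM after MC903 (-4.59, -6.87 to -3.04, from 3 UMIs, and -3.78). Without the clusters led by salivary or other-lineage genes, an alternative chosen after seeing the data, its ratios were 0.28 and 0.23. The next were Plac8 (-3.05 and -2.56), Atp1b1, a sodium pump subunit (-2.39 and -2.07), the transcription factor Myb (-3.61, -6.66 to -1.75, from 2 UMIs, and -1.61) and Asprv1, an epidermal protease (-1.75 and -2.48). Gpr65, an acid-sensing receptor, was lower by 1.59 and 1.76, and the circadian gene Per1 by 2.10 and 1.44. Lpin2 (-2.12 and -1.53), Dscam (-1.52 and -1.70) and Fam117b (-1.42 and -1.41) complete the 12 with H2-Oa and Tubb2b. Several untreated values rested on few Ccl17-high UMIs: 5 for Lpin2 (-3.75 to -0.89), 6 each for Atp1b1 and Per1 and 8 for Plac8. Dscam and Fam117b (-2.56 to -0.48) had 9 each and Asprv1 had 11. A single barcode held 47.4% of the Asprv1 UMIs of MC903 Ccl17-high cells. Within cluster 1, which held the most Ccl17-high cells after MC903, Atp1b1 (0.064), Gpr65 (0.17), Tubb2b (0.42), Per1 (0.57) and Bpifa2 (0.94) lay above 0 in that capture. In both captures together 181 genes (3.86% of 4695) were higher and 265 (5.64%) were lower, and 76.1% of the 4695 had the same direction.

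A few genes had ratios that differed most between the captures. Id1, an inhibitor of helix-loop-helix factors, lay at 2.497 untreated and 0.86 after MC903, and Tcaf2, a regulator of TRP channels, at 1.33 and 3.03. The 27 untreated Tcaf2 UMIs came from 6 Ccl17-high cells, and 1 barcode held 77.8% of them. Scin, an actin-severing protein, lay at -4.33 (-9.64 to -1.84, from 1 UMI) and -1.32, Lyz1 at -0.89 and -3.25, and Mpp7 at 0.19 and -1.55. Ccl4 lay at 1.70 and -3.44, but its UMIs came from 5 cells in each capture and 68.3% of the untreated ones from 1 barcode. None of these differences between captures could be tested.

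Over bins of the Ccl17 level the other transcripts differed by degrees. From cells with no Ccl17 UMI, through more than 0 to 5, 5 to 15, 15 to 30, 30 to 60 and at least 60 per 10000, untreated Ccl22 stood at 1116, 1497, 2621, 5026, 6500 and 12157 CPM. After MC903 it stood at 1609, 2718, 5010, 7035, 9760 and 11669 CPM. The untreated bins held 3126, 914, 517, 98, 51 and 21 cells and the MC903 bins 2197, 1307, 332, 160, 105 and 67. Cd40 was likewise higher in each bin than in the one before, from 297 to 1909 CPM untreated and from 207 to 1612 CPM after MC903. Ccl5 ran the other way, from 11635 to 2685 CPM untreated, with a second bin at 11866, and from 8867 to 2404 CPM after MC903. H2-Aa ran from 5043 down to 2758 CPM and from 5607 down to 2175 CPM across the same bins. Cd86 was higher at each step after MC903, from 402 to 1346 CPM, while the untreated bins ran between 133 and 364 CPM without a steady order. Ccr7 ran from 2883 down to 1432 CPM after MC903 and had similar ends untreated (2573 and 2677 CPM). Cells with a shallow library reach a given Ccl17 bin with fewer UMIs, so bins differ in counting error as well as in level.

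**Figure D3:**
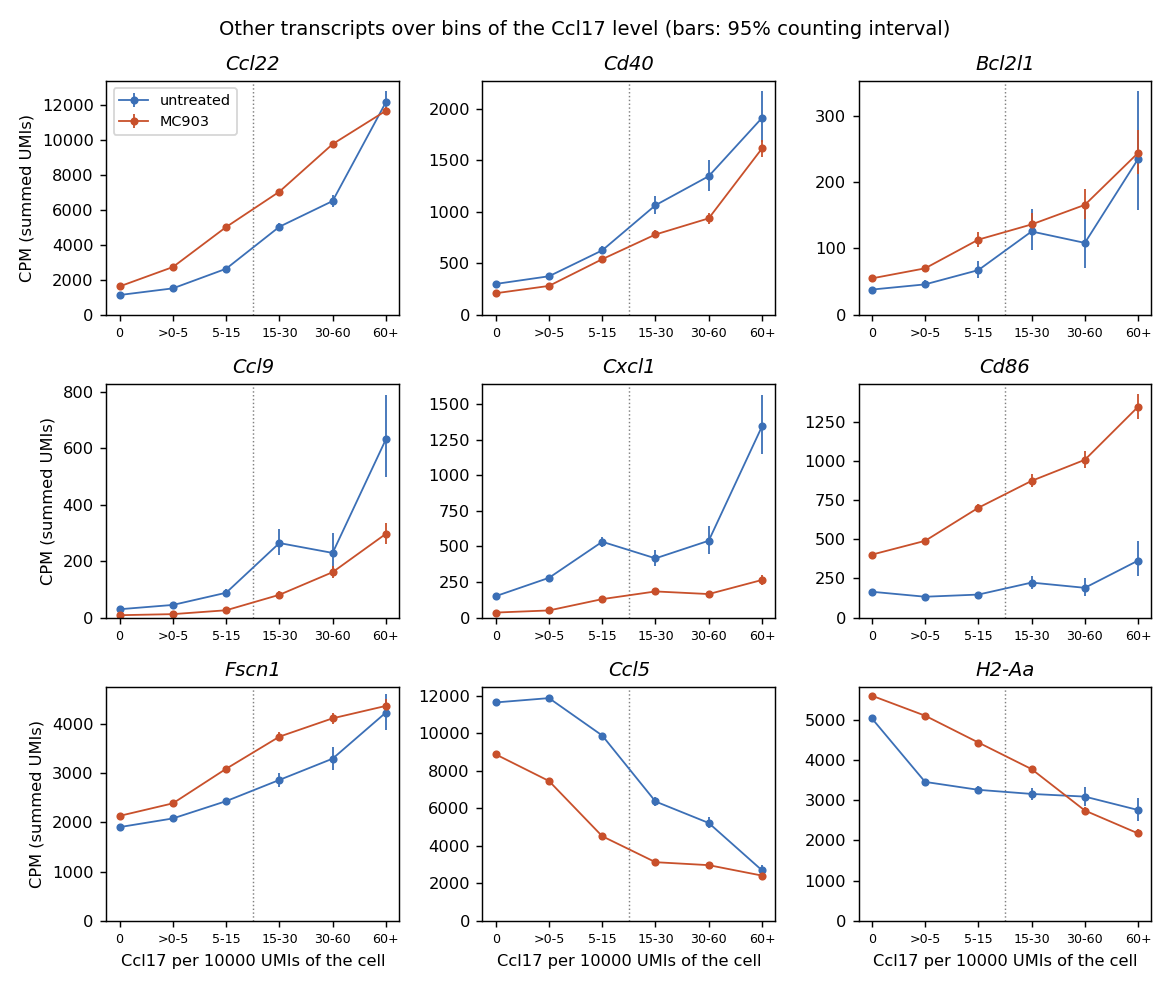
CPM of summed UMIs (vertical axes, from 0) of 9 genes over bins of Ccl17 per 10000 UMIs of the cell (horizontal axes), untreated in blue and MC903 in orange, with 95% counting intervals and a dotted line at the Ccl17-high threshold. Ccl22 reaches 12157 and 11669 CPM in the highest bin, where Ccl5 is at 2685 and 2404 CPM.

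The 4 less abundant markers rarely met in 1 cell. Of 170 untreated Ccl17-high cells, 62 had no UMI of Ccl9, Serpinb9b, Tnfsf9 or Cd70, 65 had 1 of these genes, 36 had 2, 7 had 3 and none had all 4. Of 332 MC903 cells the counts were 127, 101, 60, 35 and 9. Depth moved with this number: the median cell with none had 2668 UMIs untreated and 10541 after MC903, and the median cell with 3 had 12645 and 14584. Its part in the co-detection was not tested.

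The Ccl17-high cells were spread over several clusters of gated DCs, made without Ccl17, Ccl22, Tnfsf4 and the reporter. Cluster 1, led by Mki67, Ccl17 and Tnf, and with the cDC2 markers Sirpa, Irf4 and Cd302 among its raised genes, stayed unnamed. It held 32 untreated Ccl17-high cells (22.5% of its 142 cells, 16.0 to 30.3) and 117 after MC903 (40.2% of 291, 34.5 to 46.1). At a coarser clustering the matching shares were 24.3% and 41.0%. Untreated, the largest number of Ccl17-high cells lay instead in cluster 0, which is led by Fxyd2, Ehf and Cxcl1, with 80 cells (4.92% of 1627). After MC903 the next were the Langerhans cell-like cluster 5 with 71 cells (13.6% of 522) and cluster 12, led by Gstt1 and Fabp4, with 55 (11.8% of 467). Cluster 3 held fewer after MC903, 20 cells, but these were 21.1% of its 95. Ccl17-high cells were scarce in the untreated cDC2-like cluster 9 (1 of 386). After MC903 that cluster held 1 of 23, with an interval of 0.11 to 21.9% that includes the share of the whole capture. They were also scarce in cluster 2, led by Myl7, Tnfsf4 and Dll4 (0 of 120 and 2 of 498). In cluster 14, led by Cxcl10 and Galc, Ccl17-high cells were 0 of 92 (0 to 3.93%) and 7 of 658. In the cDC1-like cluster 15 they were 4 of 100 and 0 of 3. Clusters of proliferating, monocyte, neutrophil or salivary genes held 11 of the 502.

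Inside single clusters, the ratio of Ccl17-high to reference cells kept its sign for Ccl22 and Ccl5 and varied in size. For Ccl22 it was 1.36 in untreated cluster 0 (80 against 1312 cells), 1.60 in untreated cluster 1 (32 against 81) and 2.11 in MC903 cluster 5 (71 against 407). In MC903 cluster 1 it was 0.52 (117 against 106), and the reference cells of that cluster stood at 7581 CPM of Ccl22. Cd40 followed with 1.39, 0.39, 2.41 and 0.60 in the same order. Ccl5 lay at -0.46, -0.33, -2.42 and -0.29. Ccl9 lay at 1.02 (0.34 to 1.64) in untreated cluster 0, below its 3.16 in the whole group. It lay at 2.93 in untreated and 2.83 in MC903 cluster 1, and in MC903 cluster 5 it rested on 3 reference UMIs against 142 (7.48, 5.90 to 9.77). Tnfsf9 lay at 1.09 in untreated cluster 0 and 1.71 in MC903 cluster 5, but at -0.34 (-0.66 to -0.03) in untreated cluster 1, 0.31 in MC903 cluster 1 and -0.55 (-1.40 to 0.21) in MC903 cluster 12. Cd70 lay at 0.35 (-0.01 to 0.71) in MC903 cluster 1, but at 2.55 and 1.38 in MC903 clusters 5 and 12. Untreated, Cd70 lay at -1.20 from 2 Ccl17-high UMIs in cluster 0 and 0.73 in cluster 1. Bcl2l1 lay at 0.18 (-0.04 to 0.41) in MC903 cluster 1. It lay at 1.92, 1.69 and 1.07 in MC903 clusters 3, 5 and 12, and at 1.31 and 1.38 in untreated clusters 0 and 1. H2-Aa, at -0.56 untreated and -0.80 after MC903 in the whole group, lay at 0.11 in cluster 5, 0.04 in cluster 3 (20 against 65 cells, led by Mucl1 and Aldh1a2) and -0.05 in cluster 12 after MC903, against -0.27 (-0.33 to -0.21) in MC903 cluster 1. It lay at -0.37 and -0.62 in untreated clusters 0 and 1. None of these 4 MC903 values passed the 1.5-fold line.

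The share of Ccl17-high cells among gated DCs was 3.56% untreated (95% Clopper-Pearson interval 3.05 to 4.13) and 7.96% after MC903 (7.16 to 8.83). The 5-UMI condition alone kept 48 untreated cells and 1 MC903 cell at 15 per 10000 or more out of the group. Since deeper cells reach 5 UMIs more easily, cells were also thinned to 2000 UMIs, at which 3 Ccl17 UMIs meet 15 per 10000. Then 244 of 3967 untreated (6.15%, 5.42 to 6.94) and 386 of 4126 MC903 cells (9.36%, 8.48 to 10.3) qualified, with 808 and 43 shallower cells left out. Among cells with at least 5000 UMIs the shares were 4.58% (40 of 874) and 8.25% (311 of 3769). Within bands of depth they were 2.195% and 2.78% below 2500 UMIs, 4.59% and 5.79% from 2500 to 5000, 2.71% and 4.32% from 5000 to 10000, and 6.45% and 11.6% from 10000 to 20000. The MC903 share was the higher in each of these bands, and the intervals of the lowest 3 overlapped. At 20000 UMIs or more the order was the other way, 25% (4 of 16) against 16.7% (25 of 150).

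Hashtags divided the captures into the sorted BFP+ and BFP- cells. Untreated, 58 of 1408 BFP+ (4.12%, 3.14 to 5.29) and 23 of 612 BFP- cells (3.76%, 2.397 to 5.59) were Ccl17-high, with overlapping intervals. After MC903 the shares were 81 of 1330 (6.09%, 4.87 to 7.51) and 168 of 2051 (8.19%, 7.04 to 9.46). Cells without a call numbered 2718 untreated, more than the called ones, and 3.24% of them were Ccl17-high, against 10.4% of 692 after MC903. Taking the hashtag with at least 80% of the counts instead gave 5.90% BFP+ and 3.35% BFP- untreated, and 5.42% and 8.89% after MC903. The untreated hashtags separated weakly: cells called BFP+ had median counts of 81 for the BFP+ and 70.5 for the BFP- hashtag, and the numbers of BFP+ and BFP- cells were 1408 and 612 by one call and 356 and 3249 by the other. The cells called BFP+ and BFP- also differed in depth, with medians of 2901.5 and 8282.5 UMIs. The untreated shares by hashtag are therefore given as values only.

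**Figure D4:**
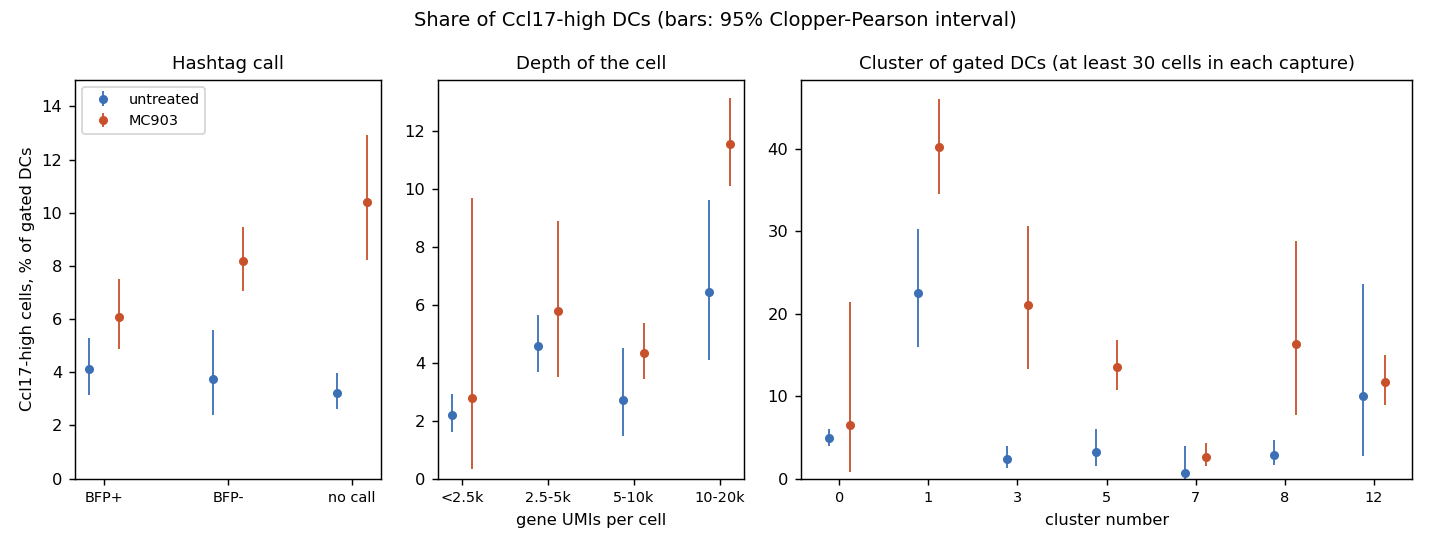
Share of Ccl17-high cells among gated DCs in percent (vertical axes, from 0) by hashtag call, by depth of the cell and by cluster, for the untreated (blue) and MC903 (orange) captures, with 95% Clopper-Pearson intervals; clusters have at least 30 cells in each capture. Cluster 1 has the highest shares, 22.5% and 40.2%.

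Within Ccl17-high cells, the MC903 capture was then set beside the untreated one, with reference DCs treated the same way. Of 4861 measured genes 495 (10.2%) were higher and 476 (9.79%) lower after MC903, against 4.45% and 4.65% of 5013 in reference DCs, whose larger number of UMIs leaves less counting error. TMM scaling gives 592 higher and 414 lower. Ccl17, whose level the rule bounds, lay at 0.26 and Ccl22 at 0.47, against 0.76 for Ccl22 in reference DCs. Of the other markers, Cd70 was higher after MC903 (1.51, 0.87 to 2.23, against 0.49 in reference DCs). Ccl9 (-1.01), Serpinb9b (-0.96) and Tnfsf9 (-0.69) were lower, and their ratios in reference DCs were -1.76, -0.46 and -0.63.

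Of 11 measured costimulatory or checkpoint ligands in Ccl17-high cells 7 were higher after MC903 and 2 lower, with a median of 1.07, and in reference DCs 5 of 10 were higher and 2 lower. Cd86 went from 234 to 1016 CPM (2.12, against 1.5 in reference DCs) and Cd80 from 85.8 to 221 CPM (1.36 against 1.52). Pdcd1lg2 differed by 1.40 (1.64 in reference DCs) and Nectin2 by 1.59 (0.61). Pvr (-0.71) and Icosl, the ligand of ICOS (-0.73), were lower.

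Of 22 measured genes of the STAT5 and STAT6 list 5 were higher after MC903, 1, the kinase gene Pim1, was lower and 16 did not pass (median 0.12), beside 10.2% higher and 9.79% lower of all genes. Cish stood at 89.6 CPM in 155 MC903 cells against 6.86 CPM in 4 untreated cells (3.71, 2.57 to 5.16, against 2.74 in reference DCs). Thinned, 12.1% of MC903 Ccl17-high cells had a Cish UMI against 0.629% untreated, with 0.932% and 1.99% of B cell barcodes, so the untreated share is not above that background. Ccnd2 differed by 2.66 (1.93 in reference DCs) and Irf4 by 1.04 (0.60). Socs2 lay at 0.13 and Socs3 at -0.13.

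Of 10 measured chemokines other than Ccl17 and Ccl22, 7 were lower after MC903 and 1, Cxcl10, was higher (2.76, against 0.89 in reference DCs). In reference DCs 3 of 8 were lower and Cxcl10 was again the 1 higher. Of 6 measured genes of the T cell cytokine list 3 were lower and none higher, and in reference DCs 1 of 6 was lower and none higher. Of all genes in Ccl17-high cells 9.79% were lower and 10.2% higher. Cxcl1 lay at -1.57 (-2.19 in reference DCs), Cxcl2 at -1.67 (-1.36) and Ccl5 at -0.92 (-0.50). Il12b lay at -1.56 (0.28 in reference DCs) and Il1b at -1.04 (-0.60). The feedback genes Nfkbiz (-1.31) and Tnfaip3 (-0.94) were lower too. In reference DCs the only member of their NF-kappaB list called lower was Nfkbid. In the reference cells of cluster 1 alone, Nfkbiz and Tnfaip3 lay at -1.53 and -1.11. Class II and class I genes showed little, with medians of 0.15 and -0.02.

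The 10 genes with the largest ratios included the salivary genes Smr3a (6.59, 4.11 to 11.9), Bpifa2 (5.38, 3.83 to 7.67) and Amy1 (4.92, 2.42 to 10.2), with 1, 3 and 1 untreated UMIs. In reference DCs these lay at 6.70, 4.58 and 3.98, but 1 barcode held 83.8%, 94.9% and 96.9% of their untreated and 89.5%, 89.9% and 87.0% of their MC903 reference UMIs. The others were the phospholipase Pla1a (4.04, 2.67 to 5.93, against 2.38), Cish, Tanc1 (2.99, 1.40 to 5.29, against 0.78), the surface glycoprotein Thy1 (2.84 against 2.65), the protein kinase A inhibitor Pkib (2.82 against 1.88), Plek2 (2.76 against 2.27) and Nrp1 (2.76 against 1.16). The 10 lowest were Ccl4, Itgb8 (-3.53), Calm4 (-3.12), Klrd1 (-2.65), Ly6e (-2.48), Fn1, Scube3 (-2.29), Mpeg1 (-2.24), Clu (-2.23) and the adaptor Blnk (-2.18). Ccl4 (-5.14) and Fn1 (-2.38) rested on 5 and 4 untreated cells, and they lay at -0.00 and 0.00 in reference DCs.

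**Figure D5:**
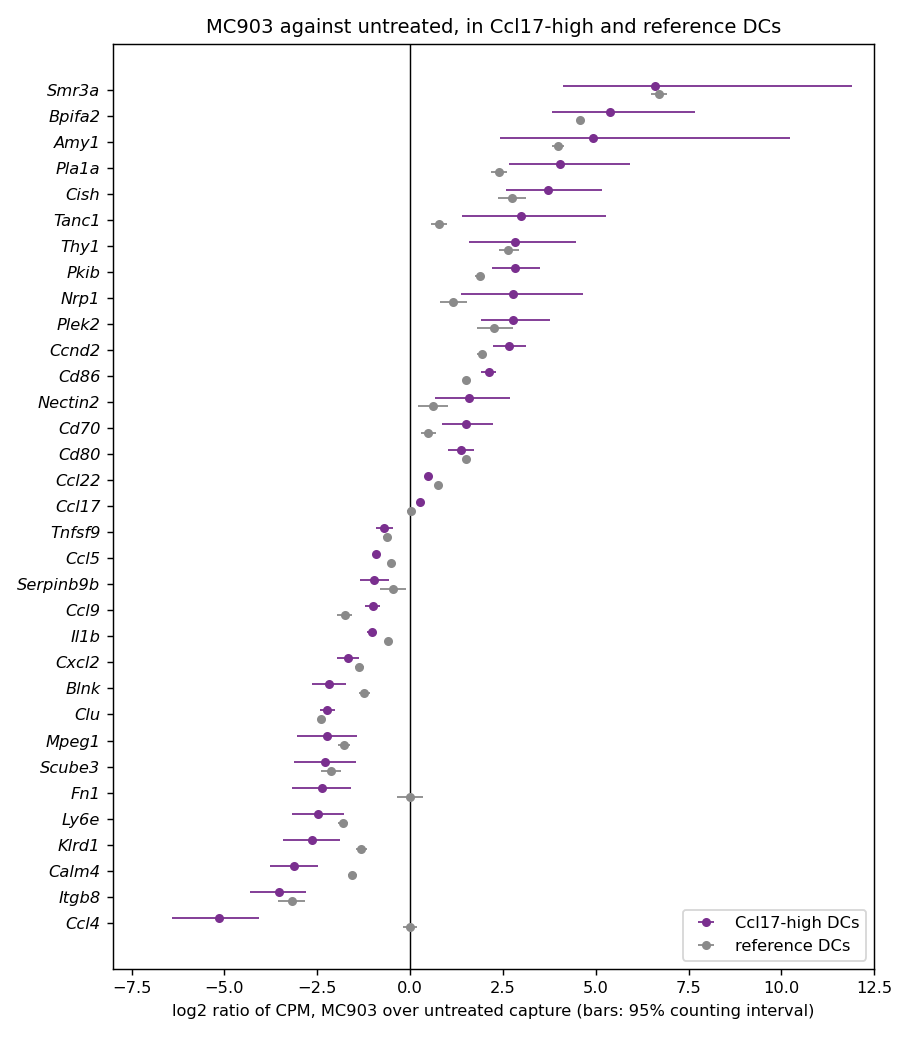
Log2 ratio of CPM in the MC903 over the untreated capture (horizontal axis) in Ccl17-high DCs (purple) and reference DCs (grey), with 95% counting intervals, for the given markers, the genes with the largest ratios and further genes named in the text. Cish lies at 3.71 and 2.74, Cd86 at 2.12 and 1.5, and Fn1 at -2.38 and 0.00.

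Because the 2 captures drew their Ccl17-high cells from different clusters, the comparison was repeated inside cluster 1, with 32 untreated and 117 MC903 cells. Cd86 (2.25, 1.93 to 2.59), Cish (2.85, 1.60 to 4.49), Ccnd2 (2.65), Cd70 (1.16), Cd80 (1.05) and Irf4 (0.999) were higher after MC903 there as well. Ccl9 (-1.70), Cxcl1 (-1.40), Il12b (-1.40), Il1b (-1.18) and Ccl5 (-1.01) were lower, and Ccl17 and Ccl22 lay at 0.10 and 0.24. Some differences of the whole group did not pass there: Serpinb9b lay at 0.13 (-0.57 to 0.89), Tnfsf9 at -0.28 (-0.58 to 0.03) and Icosl at -0.23 (-0.80 to 0.39). Plek2, at 2.76 in the whole group, lay at -1.04 there from 2 and 5 UMIs (-3.65 to 2.36). That is 6.60 and 3.22 CPM, below the 20 CPM that counted as measured. The reference cells of cluster 1 gave 2.17 for Cd86, 4.72 for Cish and 1.32 for Ccl22. Marker sums of monocytes, T cells and Langerhans cells were lower after MC903 in Ccl17-high and in reference cells. In the whole Ccl17-high group the 11 monocyte and macrophage markers summed to 345 CPM untreated and 131 CPM after MC903. The 11 T cell markers summed to 94.9 and 27.5 CPM, and the 9 Langerhans cell markers to 421 and 149 CPM. In reference DCs the same markers summed to 611 and 250, 143 and 35.9, and 374 and 126 CPM. Their part in the treatment ratios was not tested.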

How the data were processed

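Single-cell RNA and hashtag libraries of 1 untreated and 1 MC903 pool were used as deposited. The deposited matrices hold UMI counts per gene and barcode, which the authors made by running Cell Ranger 3.1.0 (per the file headers) against mm10 (per the submitters' processing notes). No normalized unit was used. The members, gene lists, thresholds and comparisons were chosen with earlier results of these data known.

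UMIs of 22631 genes were summed over the cells of a group, scaled to CPM and compared as log2 ratios with exact conditional Poisson intervals of 95% (scipy 1.17.1). A UMI count of 0 allows up to 3 counts. Intervals cover counting error only: UMIs gather in few cells, and 1 pool a treatment gives no replicate. Named genes were the 6 markers, the 12 each way with the largest smaller ratio of both captures, the 5 each way differing most between captures, the 10 each way differing most between treatments within Ccl17-high cells, and leading or explanatory members of each list. Mitochondrial, ribosomal, antigen receptor, haemoglobin, sex-linked and unnamed genes were left out of the ranking. A few genes named for clusters were chosen after their values were seen.

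Clusters came from scanpy 1.11.5 and leidenalg 0.10.2 (30 components, 15 neighbours, resolution 0.8) without Ccl17, Ccl22, Tnfsf4 and the reporter. Names required at least 3 fixed markers of a list, with at least 1 gene of that list among the cluster's 10 leading genes, and a difference in names from the study may come from this rebuilding. Hashtags were called with HTODemux (Seurat 5.3.0) at quantile 0.99. Scrublet marked 0 barcodes and so had not worked, and doublets were treated by leaving out the hashtag doublets, 1 and 11 of the Ccl17-high cells, as an alternative. TMM factors came from edgeR 4.0.16. The ratio procedure was checked on simulated data.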

Additional observations from a re-analysis of the deposited data

Results flagged for a closer look

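The ratio of Ccl17-high to reference DCs had opposite called directions in the 2 captures for 2 of the named genes, and with 1 pool a treatment the difference was not tested. Ccl4, a CC chemokine gene, was higher in untreated Ccl17-high cells (1.70) and lower after MC903 (-3.44), a difference of -5.14 on the log2 scale. Its 60 untreated and 8 MC903 UMIs came from 5 Ccl17-high cells in each capture, and 1 barcode held 68.3% of the untreated ones. Il12b, the p40 chain gene of IL-12 and IL-23, was higher untreated (1.09) and lower after MC903 (-0.75), a difference of -1.84. Its UMIs came from 30 and 47 Ccl17-high cells, and the leading barcode held 30.7% and 13.9% of them.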

How the results depend on the processing

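No paired analysis was possible because each treatment is 1 pool and no result comes from a test. Of 936 ratios of named genes under the alternatives, 786 stayed within their counting interval, 141 moved and 9 changed direction, and 12 gave no value. Of 106 other values, 81 stayed in range. The shares of Ccl17-high cells, 3.56% untreated and 7.96% after MC903, became 1.51% and 4.13% at 30 Ccl17 UMIs per 10000, and 6.15% and 9.36% when cells were thinned. Among cells of at least 5000 UMIs the untreated share was 4.58%, and the dominant hashtag gave 5.90% in untreated BFP+ cells.

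The untreated counts of 360 higher and 714 lower genes became 619 and 1132 at 30 per 10000, 543 and 466 under TMM scaling, 1398 and 2545 with no filter on low values, and 203 and 268 at 50 CPM or more. Cells of at least 5000 UMIs gave 604 higher. The MC903 counts of 364 and 555 became 1588 and 2537 with no filter, 212 and 278 at 50 CPM, and 224 lower within the cluster holding most Ccl17-high cells. The counts of MC903 against untreated within Ccl17-high cells, 495 and 476, became 1500 and 2324 with no filter, 207 and 202 at 50 CPM, and 743 higher at 30 per 10000, where 61.0% of calls were higher against 51.0%. With no filter 39.2% were higher.

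With no filter the TNF ligand median after MC903 was -0.36. The cluster holding most Ccl17-high cells was cluster 0 untreated and cluster 1 after MC903. Within it, the untreated ratio of Sod3 was -0.53 (-1.68 to 0.43, from 9 UMIs) and the median of the T cell cytokine list -0.11. After MC903 Mucl1 lay at -1.71 from 1 and 3 UMIs (-7.43 to 1.92). Bpifa2 lay there at 0.94, Atp1b1 at 0.064, Gpr65 at 0.17, Tubb2b at 0.42 and Per1 at 0.57. Without clusters led by other lineages or salivary genes, Bpifa2 lay at 0.28 untreated and 0.23 after MC903. This alternative and leaving out the highest 8% of scrublet scores were chosen after seeing the data. The cause of these changes was not tested. Depth limits genes under 20 CPM, above all in the shallower untreated capture.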
